A study of Mus musculus with 26 samples.

Results

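The genes described here are 9 forkhead transcription factor genes of embryonic mesenchyme: *Foxc1*, *Foxc2*, *Foxd1*, *Foxd2*, *Foxf1*, *Foxf2*, *Foxl1*, *Foxq1* and *Foxs1*. They were taken by symbol from the 52454 gene symbols of an RNA-seq table, and all 9 were found. The set was chosen with earlier results of these data known, so that counts of members beside shares of all genes are descriptions. The table holds 10 libraries, 1 per condition, from a study of where the DNA methyltransferases DNMT3A and DNMT3B methylate DNA during mouse development. Another 16 samples, which profile DNA methylation, are not analysed here.

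Of these libraries, 6 came from mouse embryonic fibroblasts (MEFs) of E14.5 embryos. Both 2i-MEF libraries are female F1 cells of 129X1/SvJ and MSM/Ms. These cells were grown from chimeric embryos after female ES cells kept in 2i/L medium, with *Dnmt3a* or *Dnmt3b* knocked out by CRISPR/Cas9, had been injected into blastocysts, and were cleared of host cells by G418 selection and sorting for GFP. WT 2i-MEFs are not analysed here, and the comparison within 2i-MEFs is therefore between *Dnmt3a* KO and *Dnmt3b* KO. The other 4 MEF libraries are male C57BL6 cells at passage 1, WT or labelled *Dnmt3a* KO from crosses of mice that carry a germline null allele, and each genotype was given DMSO or GSK126, an inhibitor of the Polycomb methyltransferase EZH2. Heart and liver were taken at E14.5 from male C57BL6 embryos, embryo 4 being WT and embryo 25 labelled *Dnmt3a* KO, so that heart and liver of a genotype share an embryo.

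Forkhead factors bind DNA through a winged helix domain, and the members described here are known mainly from connective tissue and vessel wall precursors. FOXC1 and FOXC2 act in paraxial mesoderm, neural crest mesenchyme, the cardiac outflow tract and vessels. FOXD1 marks stromal precursors of the kidney, while FOXF1 and FOXF2 act in the mesenchyme around gut, lung and liver, where Hedgehog ligands released by the endoderm induce their genes. FOXL1 is made in mesenchyme beneath the gut epithelium, FOXS1 in pericytes and vascular smooth muscle, and FOXQ1 is known from hair and stomach epithelium.

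Several of these genes are neighbours in the genome. On chromosome 8 of mm10, *Foxf1* (chr8:121084386-121088144), *Foxc2* (chr8:121116171-121118895) and *Foxl1* (chr8:121127940-121130644) lie within 46.3 kb on the plus strand, with gaps of 28.0 kb and 9.04 kb. On chromosome 13, *Foxq1* (chr13:31556134-31560976), *Foxf2* (chr13:31625816-31631403) and *Foxc1* (chr13:31806633-31812476) lie within 256 kb on the plus strand, with gaps of 64.8 kb and 175 kb. *Foxd1* (chr13:98354242-98359305, plus strand) is 66.5 Mb further along chromosome 13, *Foxd2* is at chr4:114906282-114908873 and *Foxs1* at chr2:152931898-152933208, the last 2 on the minus strand. Each gene has 1 annotated transcript in GENCODE M21, with 2 exons in *Foxf1* and *Foxf2* and 1 exon in the other 7.

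Promoter sequences are shown because *Foxf2* and *Foxd1*, both on chromosome 13, differed in opposite directions between MEF libraries. Of the 9 genes, 4 matched in the RefSeq promoter table (GRCm38.p6), while *Foxc2*, *Foxf1*, *Foxl1*, *Foxq1* and *Foxs1* did not match. The 250 bases before each start are given 5′ to 3′ on the strand of the gene, with GC boxes (GGGCGG, or CCGCCC on the other strand) and CCAAT boxes (CCAAT, or ATTGG on the other strand) in capitals. These motifs do not overlap in the windows, which are chr13:31806396-31806645 for *Foxc1*, chr13:31625566-31625815 for *Foxf2*, chr13:98353995-98354244 for *Foxd1* (all plus strand) and chr4:114908899-114909148 for *Foxd2* (minus strand).
Foxc1: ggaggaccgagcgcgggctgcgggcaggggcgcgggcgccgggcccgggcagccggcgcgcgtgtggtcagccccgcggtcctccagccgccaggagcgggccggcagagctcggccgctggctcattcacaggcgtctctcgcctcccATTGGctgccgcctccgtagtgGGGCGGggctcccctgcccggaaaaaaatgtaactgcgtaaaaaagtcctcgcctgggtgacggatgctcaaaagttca
Foxf2: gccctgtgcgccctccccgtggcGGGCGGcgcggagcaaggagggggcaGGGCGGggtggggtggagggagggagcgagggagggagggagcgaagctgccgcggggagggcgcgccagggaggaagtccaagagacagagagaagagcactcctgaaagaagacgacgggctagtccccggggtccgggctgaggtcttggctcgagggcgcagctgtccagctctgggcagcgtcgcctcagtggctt
Foxd1: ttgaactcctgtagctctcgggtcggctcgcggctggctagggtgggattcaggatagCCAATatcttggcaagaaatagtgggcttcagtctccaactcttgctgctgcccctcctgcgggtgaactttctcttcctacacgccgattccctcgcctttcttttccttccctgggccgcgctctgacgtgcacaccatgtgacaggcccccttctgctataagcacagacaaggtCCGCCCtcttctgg
Foxd2: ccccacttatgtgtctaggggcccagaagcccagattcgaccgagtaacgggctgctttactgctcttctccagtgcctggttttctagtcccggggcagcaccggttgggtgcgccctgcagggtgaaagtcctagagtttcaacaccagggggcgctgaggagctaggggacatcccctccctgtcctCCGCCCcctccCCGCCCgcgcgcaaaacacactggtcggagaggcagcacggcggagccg
Over the full window of 300 bases, which adds 50 bases after the start, all 4 held a GC box, as did 35.7% of the 32851 promoters of the table. A CCAAT box was found in *Foxc1* and *Foxd1* and in 37.4% of all promoters. The GC content was 71.3% in *Foxf2*, 67.7% in *Foxd2*, 67.3% in *Foxc1* and 57.7% in *Foxd1*, beside a median of 52.7% over all promoters. The ratio of observed to expected CpG was 0.79, 0.76, 0.94 and 0.62 in the same order, all above the median of 0.38 over the table. TATAAA and TGTTTA, the latter a core letter string of forkhead sites, were searched on both strands and matched in none of the 4 windows, compared with 13.6% and 13.4% of all promoters. CACGTG, the E-box, was also absent from the 4 windows and present in 7.15% of all promoters. CCACCC, a core string of Gli sites that can also be read by other factors, matched 2 times in *Foxf2*, once in *Foxd1* and not in *Foxc1* or *Foxd2*, beside 31.5% of all promoters with a match.

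Levels are given as FPKM, fragments scaled by transcript length and library depth as calculated by the authors. These levels can be compared between genes because they are per length, except for genes shorter than a fragment. Depth recovered from the steps of low FPKM values was lowest for *Dnmt3b* KO 2i-MEFs (9177804 reads) and highest for WT liver (26234830 reads). With 1 library per condition there is no replicate error and no test was made. Intervals are 95% exact Poisson intervals for levels and exact conditional binomial intervals for folds, they cover counting error only, and they compare libraries rather than conditions. How often a fold lies beyond counting error is given beside each comparison over 871 genes with a single transcript and a mean that reached 1 FPKM, and this share depends on the reads of those genes. *Dnmt3a*, checked first, was at 4.21 FPKM in the *Dnmt3a* KO 2i-MEFs and 23.9 in the *Dnmt3b* KO 2i-MEFs. *Dnmt3b* was low in all fibroblasts, at 0.817 FPKM in the *Dnmt3b* KO and 1.81 FPKM in the *Dnmt3a* KO 2i-MEFs and between 0.315 and 0.964 FPKM in the other MEFs. *Dnmt3a* was at 26.1 (DMSO) and 19.3 (GSK126) in WT MEFs but at 85.7 and 84.5 in MEFs labelled *Dnmt3a* KO, at 125 in KO-labelled heart and 55.0 in its WT counterpart, and at 12.7 in KO-labelled liver and 53.5 in its WT counterpart. Its level thus goes against the label in MEFs and heart, and every direction between genotypes given here rests on the labels. The 12 fibroblast markers summed to between 6422 and 21249 FPKM in the fibroblast libraries and to at most 1530 FPKM in tissue. The 6 cardiomyocyte markers reached 18695 and 20646 FPKM in heart and at most 60.5 FPKM elsewhere, and the 6 hepatocyte markers 10948 and 17970 FPKM in liver and at most 33.4 FPKM elsewhere.

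The 9 genes together were highest in the fibroblasts, lower in heart and lowest in liver, and each kind of sample was led by other members. Their summed level in 2i-MEFs was 51.8 FPKM with *Dnmt3a* and 30.4 FPKM with *Dnmt3b* knocked out, 30.4 and 28.9 FPKM in WT MEFs with DMSO and GSK126, and 47.0 and 42.7 FPKM in MEFs labelled *Dnmt3a* KO. It was 13.6 and 15.8 FPKM in WT and KO-labelled heart and 4.35 and 4.47 FPKM in WT and KO-labelled liver. *Foxc1* led 5 of the 6 fibroblast libraries with between 26.2% and 34.2% of the sum, and *Foxs1* led the *Dnmt3b* KO 2i-MEFs with 38.1%. *Foxc2* made up 60.2% and 49.7% of the sum in WT and KO-labelled heart, and *Foxf1* 77.7% and 86.7% in the livers. In such bulk samples, fewer cells of a type and less RNA per cell cannot be told apart.

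**Figure D1:**
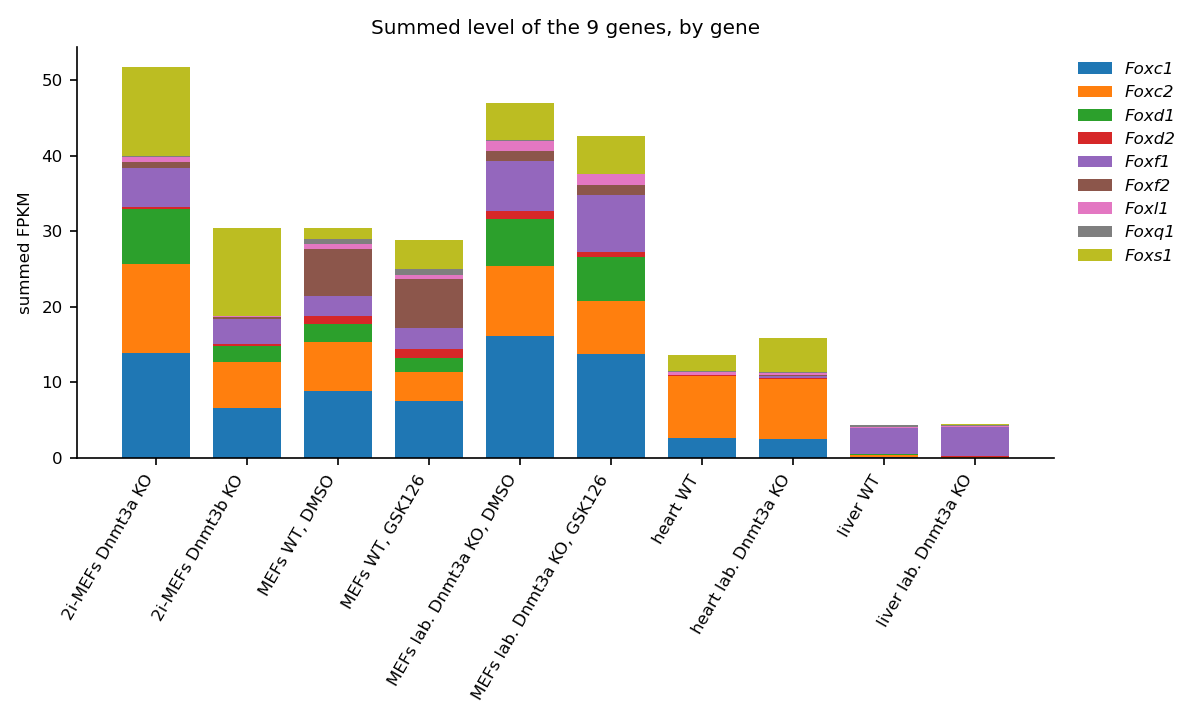
Summed FPKM of the 9 genes (y axis) in each of the 10 libraries (x axis, lab. stands for labelled), stacked by gene. The bars reach 51.8 FPKM in *Dnmt3a* KO 2i-MEFs and 4.35 FPKM in WT liver, and *Foxc2* is the tallest segment of the heart bars (60.2% and 49.7%) and *Foxf1* of the liver bars.

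For 4 of the 9 genes, *Foxc1*, *Foxd1*, *Foxd2* and *Foxf2*, all 6 fibroblast values were above all 4 tissue values. Such a pattern was found in 19.8% of the 14150 genes whose mean over the libraries reached 1 FPKM, a filter that 6 members passed and *Foxd2*, *Foxl1* and *Foxq1* did not. The fibroblast libraries differ in strain, sex, genotype and treatment and are not replicates of a group. Levels of each gene are given next, by family.

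The *Foxc* genes had the highest means over the 10 libraries. *Foxc1* was at 13.9 FPKM in *Dnmt3a* KO and 6.66 in *Dnmt3b* KO 2i-MEFs, 8.87 and 7.56 in WT MEFs with DMSO and GSK126, 16.1 and 13.7 in MEFs labelled *Dnmt3a* KO, 2.62 and 2.55 in WT and KO-labelled heart, and 0.142 and 0.0275 in WT and KO-labelled liver. It was thus highest in the KO-labelled MEFs and *Dnmt3a* KO 2i-MEFs, intermediate in heart and almost absent from liver, where 21 and 4 reads were counted. *Foxc2* was at 11.8 and 6.05 FPKM in the 2i-MEFs, 6.43 and 3.78 in WT MEFs, 9.24 and 7.06 in KO-labelled MEFs, 8.19 and 7.85 in heart, and 0.257 and 0.108 in liver, in the same order. Its heart levels lay within the range of the fibroblasts, so that only liver stood apart. Along the order of the 10 libraries, 6 of the 9 steps between neighbours exceeded counting error for *Foxc1* and 3 of 9 for *Foxc2*.

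The ratio of *Foxc1* to *Foxc2* turned between fibroblasts and heart. In fibroblasts *Foxc1* was the higher, by between 1.10-fold in *Dnmt3b* KO 2i-MEFs (interval 0.903 to 1.35, the only fibroblast interval that holds 1) and 2.00-fold in WT MEFs with GSK126 (1.70 to 2.35). In heart *Foxc2* was higher by 3.13-fold (2.68 to 3.66) in the WT embryo and 3.08-fold (2.58 to 3.68) in the embryo labelled *Dnmt3a* KO.

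Of the *Foxd* genes, *Foxd1* was near the detection limit in tissue. It was at 7.28 FPKM in *Dnmt3a* KO and 2.06 in *Dnmt3b* KO 2i-MEFs, 2.39 and 1.85 in WT MEFs with DMSO and GSK126, and 6.31 and 5.90 in KO-labelled MEFs. In the 4 tissue libraries it was between 0.0319 and 0.0549 FPKM, from 3 to 7 reads. The 3 highest values were those of *Dnmt3a* KO 2i-MEFs and both KO-labelled MEFs, the lowest of which was 2.47-fold above the next library. *Foxd2*, which has a part in kidney and craniofacial mesenchyme, was at 0.306 and 0.365 FPKM in 2i-MEFs, 1.12 and 1.23 in WT MEFs, 0.979 and 0.593 in KO-labelled MEFs, and at most 0.108 in tissue. Its order thus differed from that of *Foxd1*, with WT MEFs highest. *Foxd1* exceeded *Foxd2* in all 6 fibroblast libraries, most in *Dnmt3a* KO 2i-MEFs (23.8-fold, 11.9 to 55.5) and least in WT MEFs with GSK126, where the ratio of *Foxd2* to *Foxd1* was 0.666 (0.485 to 0.904).

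The *Foxf* genes had unlike patterns. *Foxf1* was at 5.12 FPKM in *Dnmt3a* KO and 3.30 in *Dnmt3b* KO 2i-MEFs, 2.56 and 2.78 in WT MEFs with DMSO and GSK126, 6.70 and 7.58 in KO-labelled MEFs, 0.119 and 0.351 in WT and KO-labelled heart, and 3.37 and 3.88 in WT and KO-labelled liver. It was low in heart, and its liver levels lay within the fibroblast range. *Foxf2* was at 0.804 and 0.252 FPKM in 2i-MEFs, 6.35 and 6.54 in WT MEFs, and 1.26 and 1.33 in KO-labelled MEFs, whereas 1 read was counted in KO-labelled heart and the gene was listed at 0 in WT heart and both livers. With a limit of 3 reads, a count of 0 there allows up to 0.0732 FPKM in WT heart and 0.0529 and 0.0539 FPKM in WT and KO-labelled liver. The upper ends of the 95% Poisson intervals are 0.0900, 0.0651 and 0.0663 FPKM. *Foxf2* was thus high in WT MEFs alone, and the 2 WT libraries did not differ beyond counting error (1.03-fold, 0.864 to 1.23).

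Within WT MEFs *Foxf1* was lower than *Foxf2*, with a ratio of 0.403 (0.317 to 0.510) with DMSO and 0.424 (0.339 to 0.528) with GSK126. In all 4 other fibroblast libraries *Foxf1* was the higher, by 5.30-fold (4.10 to 6.94) and 5.68-fold (4.32 to 7.59) in KO-labelled MEFs with DMSO and GSK126, 6.37-fold (3.91 to 10.9) in *Dnmt3a* KO 2i-MEFs and 13.1-fold (5.34 to 41.6) in *Dnmt3b* KO 2i-MEFs. Added up, *Foxf1* and *Foxf2* came to 8.91 and 9.32 FPKM in WT MEFs and 7.96 and 8.91 FPKM in KO-labelled MEFs, but to 5.93 and 3.55 FPKM in *Dnmt3a* KO and *Dnmt3b* KO 2i-MEFs. This sum was chosen after the values had been seen.

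**Figure D2:**
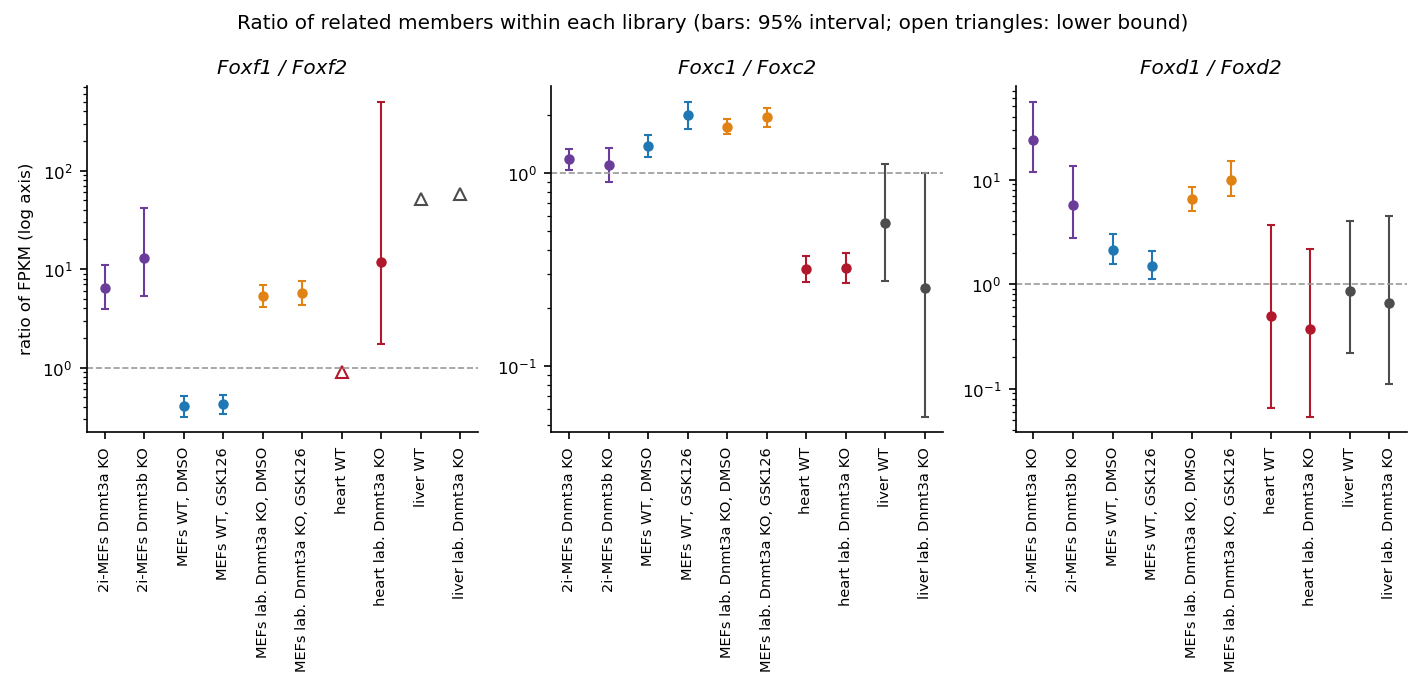
Ratio of FPKM (y axis, log scale) of *Foxf1* to *Foxf2*, *Foxc1* to *Foxc2* and *Foxd1* to *Foxd2* in each library (x axis, lab. stands for labelled), with 95% exact conditional binomial intervals. Open triangles give the lower end of the interval where *Foxf2* was listed at 0. The *Foxf1* to *Foxf2* ratio is 0.403 and 0.424 in WT MEFs and at least 5.30 in the other fibroblasts.

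The remaining 3 genes had separate patterns. *Foxl1* was at 0.657 and 0.131 FPKM in *Dnmt3a* KO and *Dnmt3b* KO 2i-MEFs, 0.666 and 0.474 in WT MEFs, 1.43 and 1.40 in KO-labelled MEFs, 0.274 and 0.310 in heart and 0.213 and 0.124 in liver, so that only the KO-labelled MEFs passed 1 FPKM. *Foxq1* was at 0.659 and 0.845 FPKM in WT MEFs with DMSO and GSK126 and at most 0.227 FPKM in the other 8 libraries, and it was listed at 0 in *Dnmt3b* KO 2i-MEFs. Its highest libraries were therefore those of its neighbour *Foxf2*. *Foxs1* was at 11.9 and 11.6 FPKM in 2i-MEFs, 1.35 and 3.81 in WT MEFs with DMSO and GSK126, 4.89 and 5.02 in KO-labelled MEFs, 2.09 and 4.44 in WT and KO-labelled heart, and 0.0343 and 0.140 in WT and KO-labelled liver. It was highest in the 2i-MEFs, which differ from the other MEFs in strain, sex, genotype, treatment, origin and selection, and these cannot be told apart.

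In 2i-MEFs, *Dnmt3a* KO was compared with *Dnmt3b* KO. Of the 9 genes 8 had the higher value in the *Dnmt3a* KO library, beside 52.0% of the 14150 genes. The fold exceeded counting error for 6 of them, beside 40.8% of single-transcript genes in either direction. *Foxd1* was 3.53-fold higher (2.81 to 4.48) and was the 1 member past 2-fold in FPKM + 1, the scale on which all genes were counted, beside 4.23% of the 14150 genes in that direction. *Foxc1* (2.08-fold, 1.84 to 2.37), *Foxc2* (1.95-fold, 1.59 to 2.39) and *Foxf1* (1.55-fold, 1.14 to 2.12) were also higher beyond counting error, as were *Foxf2* (3.19-fold, 1.15 to 10.9, from 19 and 5 reads) and *Foxl1* (5.03-fold, 1.47 to 26.7, from 18 and 3 reads), while *Foxs1* was nearly level (1.02-fold, 0.797 to 1.32). The median log2 ratio of FPKM + 1 was 0.53 over the 9 genes, 0.69 over the 6 that passed the filter and 0.02 over all genes that did. With a pseudocount of 0.1 in place of 1, 4 members passed 2-fold (*Foxc1*, *Foxd1*, *Foxf2* and *Foxl1*), beside 8.40% of all genes. The log2 ratio was 2.76 for *Rgs5*, a pericyte marker, and -1.53 for the smooth muscle gene *Myh11*, and the summed 7 pericyte and smooth muscle markers were lower in the former (2905 against 4271 FPKM). Of the 6 skeletal muscle markers *Tnnt3* was higher (1.47) and *Acta1* (-1.51) and *Mylpf* (-1.86) were lower, and of the other lists *Wt1* (-1.49, mesothelial) and *Krt18* (-1.95, epithelial) were at least 2-fold lower. The part of other cell types in these ratios was not tested.

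**Figure D3:**
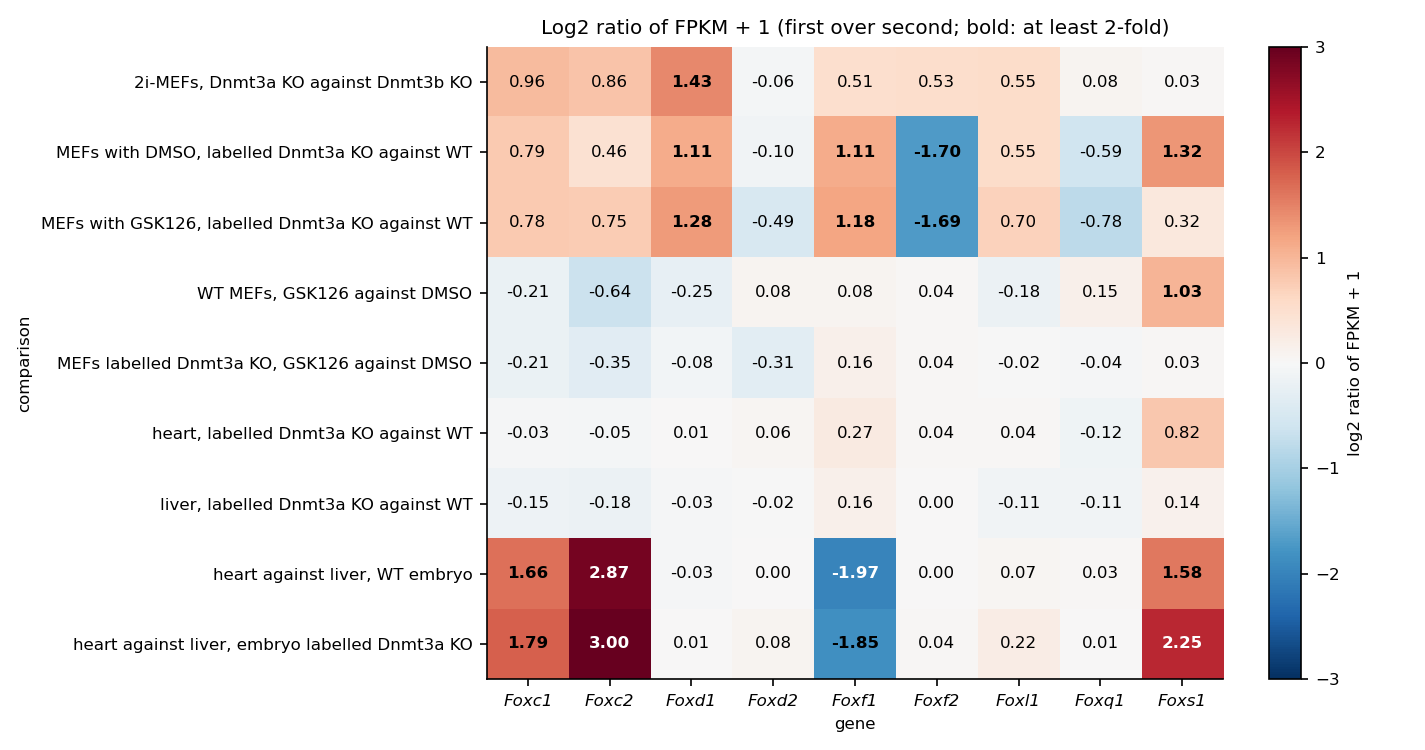
Log2 ratio of FPKM + 1 (colour and printed value) of each gene (x axis) in each comparison (y axis, first library over second), with ratios of at least 2-fold in bold. *Foxf2* lies at -1.70 and -1.69 in KO-labelled against WT MEFs, where *Foxd1* and *Foxf1* lie between 1.11 and 1.28, and *Foxc2* and *Foxf1* lie on opposite sides between heart and liver.

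MEFs labelled *Dnmt3a* KO were compared with WT MEFs within each treatment, in 4 separate libraries. With DMSO 3 members were at least 2-fold higher in FPKM + 1, beside 3.27% of all genes, and 1 was at least 2-fold lower, beside 1.54%. With GSK126 the counts were 2 higher, beside 2.12%, and 1 lower, beside 2.14%. *Foxd1* was higher by 2.64-fold (2.27 to 3.09) with DMSO and 3.19-fold (2.69 to 3.80) with GSK126. *Foxf1* was also higher, the ratio of WT to KO-labelled being 0.383 (0.304 to 0.477) and 0.366 (0.295 to 0.452). *Foxf2* was lower by 5.03-fold (3.84 to 6.65) and 4.91-fold (3.71 to 6.59). These 3 genes thus kept their direction and nearly their size under both treatments. Whether the DMSO and GSK126 libraries of a genotype came from the same MEF isolate is not given. The treatments therefore cannot be taken as independent repeats of the comparison between genotypes. *Foxs1* was 3.61-fold higher (2.38 to 5.68) with DMSO and 1.32-fold (0.985 to 1.77) with GSK126, where the interval holds 1.

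With DMSO 8 of the 9 folds lay beyond counting error, 6 higher and 2 lower, beside 56.1% of single-transcript genes, and with GSK126 also 8, 5 higher and 3 lower, beside 48.0%. *Foxc1* was 1.81-fold (1.68 to 1.96) and 1.82-fold (1.67 to 1.98) higher in KO-labelled MEFs with DMSO and GSK126, and *Foxc2* 1.44-fold (1.25 to 1.66) and 1.86-fold (1.56 to 2.24). *Foxl1* was higher by 2.15-fold (1.41 to 3.37) and 2.94-fold (1.82 to 4.93) in FPKM. *Foxq1* was lower by 6.53-fold (3.46 to 13.4) and 11.9-fold (5.49 to 30.5), from 12 and 7 reads in the KO-labelled libraries. Because its level was under 1 FPKM, *Foxq1* passed 2-fold only with a pseudocount of 0.1, which brought the lower members to 2 under each treatment, beside 3.46% of all genes with DMSO and 4.81% with GSK126. *Foxd2* was within counting error with DMSO (0.877-fold, 0.590 to 1.31) and 2.08-fold lower (1.31 to 3.35) with GSK126. On chromosome 13, *Foxq1* and *Foxf2* were thus lower and *Foxc1*, 175 kb beyond *Foxf2*, was higher, whereas on chromosome 8 *Foxf1*, *Foxc2* and *Foxl1* were all higher. The median log2 ratio of FPKM + 1 of the 9 genes was 0.55 with DMSO and 0.70 with GSK126, beside 0.02 and 0.00 over all genes. Over the 6 members that passed the same filter it was 0.95 and 0.77.

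Marker lists of other cell types moved in the same libraries. The 8 mesothelial, epicardial and stellate markers summed to 54.8 and 65.7 FPKM in WT MEFs with DMSO and GSK126 and to 98.9 and 229 FPKM in KO-labelled MEFs, where 3 of 8 were at least 2-fold higher and 1 was lower under each treatment. *Upk3b*, a mesothelial gene, was at 12.9 and 13.3 FPKM in WT and 40.5 and 88.0 FPKM in KO-labelled MEFs, and *Wt1* at 1.03 and 0.982 FPKM and 5.42 and 4.56 FPKM, whereas *Tbx18* was lower, at 4.59 and 4.39 FPKM in WT and 1.72 and 1.49 FPKM in KO-labelled MEFs. The 12 fibroblast markers had a median log2 ratio of -0.34 and -0.54. The 7 pericyte and smooth muscle markers, the cell types in which *Foxs1* is known, summed to 1959 FPKM in WT and 2535 FPKM in KO-labelled MEFs with DMSO (median log2 ratio 0.29, 0 of 7 at 2-fold, *Rgs5* at 0.95) and to 2053 and 1844 FPKM with GSK126 (median -0.13, *Myh11* lower at -1.11). The 6 skeletal muscle markers summed to 22.7 FPKM in WT and 64.0 FPKM in KO-labelled MEFs with DMSO, where 3 of 6 were at least 2-fold higher (log2 ratios of 1.33 for *Acta1*, 1.78 for *Tnnt3* and 1.06 for *Mylpf*), and to 30.4 and 39.1 FPKM with GSK126, where 0 were. The 6 epithelial markers summed to 5.98 and 13.7 FPKM with DMSO and 7.93 and 22.5 FPKM with GSK126, with *Krt8* at log2 ratios of 1.46 and 2.44. Of the 6 cardiomyocyte markers *Tnnt2* was higher with DMSO (1.57). Of the 6 endothelial markers *Cdh5* was at least 2-fold lower with DMSO (log2 ratio -1.47) and 0 were with GSK126, with medians of -0.08 and -0.03. In the fibroblast libraries *Tek* was between 0.411 and 2.80 FPKM, and *Tie1* was listed at 0 in all 6. The part of such cells in the forkhead levels was not tested.

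GSK126 was compared with DMSO within each genotype, with the same 4 MEF libraries as above, so these comparisons share libraries with those between genotypes. In WT MEFs, *Foxs1* was 2.82-fold higher (1.81 to 4.53) with GSK126, from 27 to 82 reads, and was the 1 member at least 2-fold higher in FPKM + 1, beside 1.46% of all genes. *Foxc2* was 1.70-fold (1.41 to 2.05) and *Foxc1* 1.17-fold (1.07 to 1.29) lower, *Foxd1* was 1.29-fold lower (upper end of the interval 1.59, lower end above 1), and the intervals of the other 5 genes held 1. Thus 4 of 9 folds lay beyond counting error, beside 39.3% of single-transcript genes. In KO-labelled MEFs, 0 members were 2-fold apart in either direction, beside 3.78% of all genes. There *Foxs1* was at 5.02 against 4.89 FPKM (1.03-fold, 0.798 to 1.32), *Foxc2* was 1.31-fold (1.15 to 1.49) lower and *Foxc1* 1.17-fold (1.10 to 1.25) lower. *Foxd2* was at 0.606 (0.377 to 0.954) of its DMSO level, from 30 and 60 reads, and the intervals of the other 6 genes held 1, beside 52.7% of single-transcript genes with an interval off 1. Markers of other cells that moved with GSK126 were *Tnnt2* (log2 ratio 1.64, cardiomyocyte) and *Mylpf* (1.43, skeletal muscle) in WT MEFs, and *Upk3b* (1.10) and *Msln* (1.53), both mesothelial, in KO-labelled MEFs, where 2 of the 12 fibroblast markers were also at least 2-fold lower. Their part in these ratios was not tested. Whether the *Foxs1* ratio differs between genotypes was not tested, as each rests on 1 library per arm. *Foxf2* was within counting error in both genotypes, at 1.03-fold (0.864 to 1.23) in WT and 1.06-fold (0.736 to 1.51) in KO-labelled MEFs.

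In heart, 0 members were at least 2-fold apart between the KO-labelled and the WT library in FPKM + 1, beside 2.58% of all genes. *Foxc1* (0.974-fold, 0.813 to 1.17) and *Foxc2* (0.959-fold, 0.823 to 1.12) were within counting error, intervals that still hold a 1.23-fold and a 1.21-fold lower level. *Foxs1* was 2.12-fold higher (1.45 to 3.15) in the KO-labelled heart in FPKM, from 44 to 76 reads, and it was the 1 member whose interval lay off 1, beside 25.6% of single-transcript genes. It passed 2-fold, together with *Foxf1*, with a pseudocount of 0.1, beside 3.46% of all genes. The 7 pericyte and smooth muscle markers had a median log2 ratio of -0.03 between these hearts and summed to 1480 FPKM in WT and 1143 FPKM in KO-labelled heart. The hepatocyte markers, which heart should lack, summed to 33.4 FPKM in WT and 7.27 FPKM in KO-labelled heart, and their part in the forkhead levels was not tested.

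In liver, 0 members were at least 2-fold apart between KO-labelled and WT libraries, beside 2.61% of all genes. *Foxf1*, the leading member there, differed by less than counting error (1.15-fold, 0.943 to 1.40). *Foxc1* was 5.15-fold lower (1.74 to 20.7) in the KO-labelled liver, from 21 to 4 reads, and was the 1 member whose interval lay off 1, beside 44.7% of single-transcript genes. Marker lists differed between these livers. The 6 erythroid markers summed to 56338 FPKM in WT and 84614 FPKM in KO-labelled liver and the 6 hepatocyte markers to 17970 and 10948 FPKM. The 6 skeletal muscle markers, all at least 2-fold lower in the KO-labelled library, summed to 287 FPKM in WT and 111 FPKM in KO-labelled liver, the 6 cardiomyocyte markers to 60.5 and 6.61 FPKM, and the 12 fibroblast markers to 549 and 298 FPKM. The part of these cells in the *Foxc1* reads was not tested.

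Heart was compared with liver within each embryo. In both embryos 3 members were at least 2-fold higher in heart, *Foxc1*, *Foxc2* and *Foxs1*, and 1 was at least 2-fold lower, *Foxf1*. In the WT embryo these counts stand beside 18.8% of all genes higher and 19.2% lower, and in the embryo labelled *Dnmt3a* KO beside 21.7% and 18.1%. *Foxc2* was higher in heart by 31.9-fold (19.7 to 55.3) in the WT embryo and 72.9-fold (35.0 to 183) in the KO-labelled embryo, and *Foxc1* by 18.4-fold (11.8 to 30.3) and 92.6-fold (35.7 to 343). *Foxs1* was higher by 60.8-fold (10.4 to 2457) and 31.7-fold (11.9 to 119), from 1 and 4 reads in liver. *Foxf1* was lower in heart, at 0.0353 (0.0113 to 0.0837) and 0.0906 (0.0461 to 0.161) of its liver level. *Foxc2* and *Foxf1*, 28.0 kb apart on chromosome 8, thus lay on opposite sides of this comparison, and the intervals of the other 5 genes held 1 or could not be given because both values were listed at 0. The 4 of 9 folds beyond counting error stand beside 82.3% of single-transcript genes in the WT embryo and 83.0% in the other. All 6 endothelial markers and 5 (WT) or 6 (KO-labelled) of the 7 pericyte and smooth muscle markers were also at least 2-fold higher in heart, as were 6 (WT) or 11 (KO-labelled) of the 12 fibroblast markers. Of the 8 mesothelial, epicardial and stellate markers 6 were higher and 2 lower in heart in both embryos, and the part of such cells in the forkhead ratios was not tested.

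Genes known downstream of forkhead factors in mesenchyme or vessels were read from a list of 9. In 2i-MEFs 2 of 9 were at least 2-fold higher in the *Dnmt3a* KO library, beside 4.23% of all genes, with log2 ratios of FPKM + 1 of 2.13 for *Tbx1*, a T-box gene of pharyngeal mesoderm, and 1.28 for the BMP ligand gene *Bmp4*. In MEFs with DMSO 2 of 9 were higher in the KO-labelled library, beside 3.27% of all genes: *Tbx1* (1.53) and the chemokine gene *Cxcl12* (1.38). With GSK126 *Tbx1* was again higher (1.26) and *Kitl*, which encodes stem cell factor, was lower (-1.25), beside 2.12% and 2.14% of all genes. *Tbx1* was thus at 5.51 FPKM in *Dnmt3a* KO 2i-MEFs and at 4.73 and 3.12 FPKM in KO-labelled MEFs with DMSO and GSK126. In the other fibroblasts it was between 0.484 and 0.988 FPKM. The libraries with high *Tbx1*, grouped after the values had been seen, also held the highest levels of *Foxc1*, *Foxd1* and *Foxf1*. A link between *Tbx1* and any of these genes was not tested. None of the 9 was 2-fold apart in heart or liver between labelled genotypes, and 5 of 9 were higher in heart than in liver in both embryos, beside 18.8% and 21.7% of all genes.

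The Hedgehog pathway was read from 15 genes. None was at least 2-fold higher in KO-labelled MEFs, while 2 of 15 were lower with DMSO, beside 1.54% of all genes, and 4 of 15 with GSK126, beside 2.14%. *Gli2*, a transcription factor of the pathway, had a log2 ratio of -1.07 under each treatment, and *Gas1*, a co-receptor, had log2 ratios of -1.08 and -1.01. With GSK126 alone, the target gene *Gli1* (-1.18) and the co-receptor gene *Cdon* (33.8 FPKM in WT and 15.8 FPKM in KO-labelled MEFs) also passed 2-fold. Other target genes of the pathway went the other way without passing 2-fold, with log2 ratios of 0.80 and 0.29 for *Ptch1* and 0.09 and 0.42 for *Hhip* with DMSO and GSK126. The median over the 15 genes was 0.05 with DMSO and -0.08 with GSK126.

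Genes with the most similar pattern over the 10 libraries were sought among 11687 genes by Pearson's r of log2(FPKM + 1). These values are descriptions, since the points share libraries, strain and culture. *Foxf2* was closest to *Syt13* (0.985), AC122860.2 (0.980) and the limb and lung mesenchyme gene *Tbx4* (0.972), which were at 16.6, 4.66 and 15.5 FPKM in WT MEFs with DMSO and at 4.20, 0.537 and 3.75 FPKM in KO-labelled MEFs with DMSO. *Foxc1* was closest to *Mmp2*, *Ebf1* and *Arhgef10* (each 0.990), and *Foxc2* to *Arhgef10l* (0.981), *Ube2d1* (0.979) and *Ctnnbip1* (0.977). *Foxd1* was closest to *Adamtsl3* (0.977), *Angpt2* (0.975) and *Pisd-ps2* (0.973), *Foxf1* to *Arfgef2* (0.973), *Yipf4* (0.966) and *Hist1h2bc* (0.960), and *Foxs1* to *Slc4a4* (0.988), *Dcbld2* (0.972) and *Btbd10* (0.969). Among the members themselves, 6 of 36 pairs reached 0.80, led by *Foxf2* with *Foxd2* (0.93) and *Foxc1* with *Foxd1* (0.90), while *Foxf1* and *Foxf2* were at 0.27. The share over all pairs of genes was not calculated, so this count has no background, and *Foxd2* was at most 1.23 FPKM.

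The lower end of 55 other genes of the table lies within 200 kb of that of a member, and of these 25 reached 1 FPKM in at least 1 library. In the chromosome 8 group *Mthfsd* lies between *Foxf1* and *Foxc2* and was at 13.1 to 30.6 FPKM in all 10 libraries, without the low heart level of *Foxf1* or the low liver level of *Foxc2*. In the chromosome 13 group *Gmds*, beside *Foxc1*, was at 9.54 FPKM or more in every library. Around *Foxd1*, *Btf3* (412 to 802 FPKM), *Ankra2* (4.34 to 14.2), *Utp15* (3.74 to 11.8) and Gm9828 (5.62 to 12.3) were expressed in every library, tissue included, whereas Gm21976 (1.67) and Gm2445 (1.81) reached their highest level in a single library. *Foxd2os*, which starts 383 bases from *Foxd2* on the other strand, was at 0.920 to 2.61 FPKM in fibroblasts and 0.159 to 0.333 FPKM in tissue. *Cmpk1*, *Stil*, *Tal1*, *Pdzk1ip1* and Gm24045 beside *Foxd2*, and *Id1*, *Cox4i2*, *Bcl2l1*, *Tpx2*, *Mylk2*, *Dusp15*, *Pdrg1* and *Ccm2l* beside *Foxs1*, reached between 1.96 and 334 FPKM. In addition, Gm27516, an annotated miRNA of 98 bases within *Foxf2* on the other strand, was listed at 62.0 and 38.4 FPKM in WT MEFs and 0 elsewhere. Gm27530, of 98 bases within *Foxf1*, was listed at up to 62.0 FPKM. Both are shorter than the fragment length used to recover reads, so that a few reads may be listed as a high FPKM. The reads behind these values were not recovered, and the values cannot be set against the levels of the host genes. Without knowledge of the strand setting, reads of Gm27516 and Gm27530 cannot be told apart from those of the host genes. The lincRNA 1700018A04Rik, named after its values had been seen, starts 23 bases before *Foxf2* on the other strand and was at 0.631 and 0.596 FPKM in WT MEFs, 0.0357 FPKM in KO-labelled MEFs with GSK126, and listed at 0 in the other 7 libraries.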

How the data were processed

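RNA-seq of poly-A RNA (stranded TruSeq kit, single reads) was analysed in 10 libraries, 1 per condition. The submitters' processing notes name cutadapt 1.9.1, TopHat2 2.1.0, Bowtie2 2.2.5 and 2.2.8 and Cufflinks 2.2.1. The authors' published methods give other versions of cutadapt, TopHat and Bowtie2 for RNA-seq. The authors mapped reads to mm10 with the GENCODE M15 annotation, kept unique reads and calculated FPKM, which they deposited as 1 table of 52609 rows without counts. Whether counting used strand is not given in the sources used here. The reads of 2i-MEFs, which carry an MSM/Ms genome, were mapped to mm10, and the effect on their levels was not tested.

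Rows of the same symbol were summed. Reads were recovered from 6452 genes that have a single transcript no shorter than 1500 bases, since FPKM of low genes steps by whole reads. With a fragment length of 202 bases, 97.9% to 99.1% of values under 10 reads lay within 0.1 of a whole number, where chance gives 20%. All 52 member values of 1 to 99 reads did so, and 4 of 90 member values were listed at 0.

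Comparisons used the log2 ratio of FPKM + 1, and a gene was counted at 2-fold or more. The background is the 14150 genes whose mean reached 1 FPKM. This ratio understates the change of low genes, so folds in FPKM are given with it. With 1 library per condition, no p-value was calculated. Scripts were tested on simulated data.

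Members and lists were chosen with earlier results of these data known. Named genes are the 9 members, other forkhead genes at 5 FPKM or more, genes starting within 200 kb at 1 FPKM or more, the 3 most similar genes of members at 5 FPKM or more (symbols of Gm and digits or ending in Rik left out), at most 4 genes of a list that are 2-fold apart (*Tek*, *Tie1*, *Ptch1* and *Hhip* were added after their values were seen), *Dnmt3a* and *Dnmt3b*. A gene that this rule names is not reported here. Promoters came from RefSeq. Alternatives were a pseudocount of 0.1, a 1.5-fold threshold, centred ratios, size factors, no filter, Spearman's correlation, a floor of 1 FPKM and the full transcript length. Python 3.11.15, numpy 2.4.6, pandas 2.3.3, scipy 1.17.1 and matplotlib 3.10.9 were used.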

Additional observations from a re-analysis of the deposited data

How the results depend on the processing

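Centring each ratio on the median of genes at 1 FPKM in both libraries (shifts of -0.13 to 0.03, log2) changed no count of members, and dividing by size factors left 4 members with all fibroblast values above tissue. A pseudocount of 0.1 raised the members at least 2-fold apart from 1 to 4 (higher, 2i-MEFs), from 1 to 2 (lower, KO-labelled against WT MEFs, with DMSO and with GSK126 alike) and from 0 to 2 (higher, KO-labelled heart), and left the other 14 counts within 1.5 times. A threshold of 1.5-fold gave 3 higher in 2i-MEFs, 2 lower in KO-labelled MEFs with DMSO, 5 higher and 2 lower with GSK126, 1 lower with GSK126 in WT MEFs and 1 higher in KO-labelled heart. The share of all genes past 1.5-fold was not calculated, so these counts cannot be set against a background. Of 81 ratios of single members, 13 moved beyond counting error with the smaller pseudocount and 0 turned. Without the filter, which adds genes near 0, the share of all genes 2-fold apart fell in all 9 comparisons (to between 0.932% and 12.1%). With Spearman's correlation, the 3 most similar genes of *Foxc1* and *Foxf2* had none left among the 20 highest, and those of *Foxc2* and *Foxs1* had 1 each. No paired analysis was possible because no result comes from a test, and heart and liver were set side by side within each embryo. Of the 90 member values 52 rest on 1 to 99 reads and 4 are listed at 0, among them all values of *Foxd2*, *Foxl1* and *Foxq1* and all tissue values of *Foxd1*, *Foxf2* and *Foxs1*.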

Other observations

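The table holds 35 other genes of the forkhead family, of which 16 reached 5 FPKM in at least 1 library and 14 stayed under 1 FPKM in all 10. In 5 of the 35, all fibroblast values lay above all tissue values, a pattern found in 19.8% of the 14150 genes whose mean reached 1 FPKM. *Foxa2* and *Foxa3*, hepatocyte and endoderm factors, were at 5.68 and 15.1 FPKM in WT liver and 4.76 and 12.3 FPKM in the liver labelled *Dnmt3a* KO, with at most 1.56 FPKM elsewhere. *Foxh1*, a partner of SMAD proteins in the early embryo, was at 5.97 FPKM in WT liver and 18.3 FPKM in the liver labelled *Dnmt3a* KO, and was listed at 0 in the 6 fibroblast libraries. *Foxo3* was highest in liver (50.3 and 53.0 FPKM). *Foxm1*, a factor of dividing cells, was at 19.7 to 25.9 FPKM in tissue and 6.81 to 11.2 FPKM in fibroblasts.

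*Foxp1* and *Foxp2* were fibroblast-rich, with *Foxp1* at 39.0 to 74.7 FPKM in fibroblasts, 26.3 and 23.9 FPKM in heart and 14.9 and 8.34 FPKM in liver, and *Foxp2* at 4.27 to 11.9 FPKM in fibroblasts and at most 1.96 FPKM in tissue. *Foxp2* was at 10.9 and 11.9 FPKM in MEFs labelled *Dnmt3a* KO and 4.27 and 4.90 FPKM in WT MEFs with DMSO and GSK126. The other genes past 5 FPKM were *Foxj2*, *Foxj3*, *Foxk1*, *Foxk2*, *Foxn2*, *Foxn3*, *Foxo1*, *Foxo4* and *Foxp4*, with highest levels between 5.92 and 33.0 FPKM. *Fendrr*, a lncRNA that starts 1275 bases from *Foxf1* on the other strand and is named here after its values had been seen, was between 0.190 and 0.469 FPKM in the 4 MEF libraries, at 0.103 FPKM in *Dnmt3a* KO 2i-MEFs, at 0.121 and 0.261 FPKM in WT and KO-labelled liver and listed at 0 in both hearts and in *Dnmt3b* KO 2i-MEFs.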
